A study of Rattus norvegicus with 10 samples.

Results

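The genes described here encode the proteins of the cytosolic ribosome. They were taken by symbol from the array annotation: every symbol that begins with Rpl or Rps followed by a digit, together with Rpsa, Rplp1 and Rplp2, leaving out the Rps6k kinases, with at least 3 values in each group. The rule gave 60 genes out of 9974 genes tested, of which 39 belong to the large subunit and 21 to the small subunit. They were read by 83 probes, and all 83 had a value in all 10 samples. 1 probe stood for each of 41 genes, while 19 genes had 2 or more. Rplp0, the central protein of the stalk, is on the array under an older symbol and so lies outside the rule.

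RNA came from pancreatic islets of male Sprague-Dawley rats of about 250 g. Nkx6.1 samples were islet pools exposed to AdCMV-Nkx6.1, an adenovirus that carries the hamster form of the beta-cell transcription factor Nkx6.1, and bGAL samples were islet pools exposed to AdCMV-βGAL, which carries the enzyme beta-galactosidase. Both groups had 5 samples from separate islet isolations, about 200 islets per condition, 8 mM glucose, 18 h with virus and a further 60 h in culture, so every sample carried an adenovirus and an untreated group is not analysed here. The CMV promoter named in both viruses is active in many cell types, so the transgene need not have been limited to beta cells. Which cells of the whole islets expressed it is not analysed here. Each sample was amplified from 500 ng of RNA, labelled with Cy5 and hybridised with a Cy3-labelled rat reference RNA. Fewer cells of a type and less RNA per cell cannot be told apart in such pools.

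Ribosomes are built from ribosomal RNA and one copy of most ribosomal proteins. The small subunit reads the messenger RNA, and the large subunit joins the amino acids and passes the chain out through an exit tunnel. Cells that prepare to divide make more ribosomes, and in mammals the messages of ribosomal proteins begin with a C followed by a run of C and T bases, the TOP motif, through which mTOR signalling controls their translation. That control acts on translation, whereas arrays measure the amount of RNA.

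The sequence around the annotated transcription start was searched for runs of C and T. Such a run need not be a TOP motif, which begins at the first base of the message. The windows of 8 genes are given because the results below turn on them or as examples of long and short runs. Each window holds the 30 bases before and the 30 bases from the annotated start, read from the RefSeq promoter table of GRCr8 on the gene's strand, and capitals mark the longest run of C and T. Rps15a, Rpl5, Rps4x and Rplp1 had the clearest separation of the groups or lay close to it. Rpl35a has a run longer than the family's median and Rps26 one close to it, and both were picked after their values were seen. Rpl3l and Rpl22l1 are paralogs of standard ribosomal protein genes. The windows lie at chr1:181860255-181860314 for Rps15a, chr14:1995196-1995255 for Rpl5, chrX:71342892-71342951 for Rps4x, chr8:71290843-71290902 for Rplp1, chr7:1643375-1643434 for Rps26 and chr11:81234992-81235051 for Rpl35a, all on the minus strand. Those of Rpl3l at chr10:14258416-14258475 and Rpl22l1 at chr2:113683166-113683225 are on the plus strand.
Rps15a: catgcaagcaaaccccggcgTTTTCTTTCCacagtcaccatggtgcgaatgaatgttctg
Rpl5: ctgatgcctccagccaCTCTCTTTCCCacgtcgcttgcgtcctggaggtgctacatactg
Rps4x: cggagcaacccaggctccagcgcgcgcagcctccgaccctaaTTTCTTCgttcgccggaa
Rplp1: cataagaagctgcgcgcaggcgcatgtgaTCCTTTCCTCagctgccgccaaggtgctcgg
Rps26: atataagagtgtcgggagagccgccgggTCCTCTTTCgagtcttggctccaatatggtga
Rpl35a: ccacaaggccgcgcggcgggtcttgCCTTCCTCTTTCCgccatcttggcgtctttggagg
Rpl3l: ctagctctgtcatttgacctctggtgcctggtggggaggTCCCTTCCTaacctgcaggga
Rpl22l1: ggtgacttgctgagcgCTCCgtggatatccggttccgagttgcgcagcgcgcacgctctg

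A promoter entry was matched for 51 of the 60 genes. The other 9 are Rpl10l, Rpl27, Rpl15, Rps29, Rpl7, Rpl30, Rps25, Rpl8 and Rpl32. In this 60-base window the longest run of C and T had a median of 10 bases over the 51 genes (lowest 3, highest 24), against 5 bases over all 27457 genes in the table. A run of 7 or more bases was present in 43 of 51 (84.3%), against 34.0% of all genes. By class, 42 of 47 standard genes held such a run, against 1 of 4 paralogs, and that paralog was Rpl3l. Its run begins past the annotated start, as does that of Rps4x, whereas the runs of Rps15a, Rpl5 and Rpl35a begin before it.

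Short motifs were searched on both strands of the 300 bases that the table holds per gene, 250 before the start and 50 after it. CTTTCC was found in 27 of 51 ribosomal protein promoters (52.9%), against 26.4% of all promoters. The longer CTCTTTCC, which contains CTTTCC, was found in 8 of 51 (15.7%), among them Rpl5 and Rps4x, against 3.04% of all. TTCCGG, the core bound by ETS-family factors, was found in 27 of 51 (52.9%), against 15.8% of all. TATAAA, the core of the TATA box, was found in 4 of 51 (7.84%), namely Rpl3, Rpl36a, Rpl39 and Rps2, against 14.3% of all. These are matches of letters only, and no binding was measured.

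The values of the array are log2 ratios, most likely islet RNA over reference RNA, and each probe is centred on its median over the 10 samples. A value therefore says how a sample stands to the other samples for that gene, and the level of one gene cannot be set against that of another. For the same reason hormone genes could not be used to check the tissue by level, although all 8 on the list were measured. The probe sequences are not used here, and ribosomal protein genes have many near-identical processed copies in mammalian genomes, so a probe may read more than the gene it is named for.

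Every ribosomal protein gene stayed short of the threshold between the Nkx6.1 and bGAL groups. With limma and Benjamini-Hochberg adjustment over all 9974 genes, 0 of 60 had an adjusted p under 0.05, where 15 of 9974 genes (0.15%) did, 11 higher (0.11%) and 4 lower (0.0401%). By probe the count was 0 of 83, against 15 of 18546 probes (0.0809%). The lowest adjusted p of a member was 0.141, that of Rps15a. At an unadjusted p under 0.05, 6 of 60 (10%) remained, against 962 of 9974 genes (9.65%), so the share of the ribosomal protein genes was near that of the array as a whole. 5 of these 6 were lower with Nkx6.1 (Rpl10l, Rpl5, Rps15a, Rps4x and Rps7), where 5.1% of all genes were lower at that p, and 1 was higher (Rplp1), where 4.54% of all genes were. Rps7 is named here after its values were seen.

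The differences were small and ran both ways. The Nkx6.1 mean was above the bGAL mean for 33 genes and below it for 27, and 50 of 60 differences were under 0.5 log2 units in size. The median difference, Nkx6.1 minus bGAL, was 0.04 over the 60 genes, against −0.05 over all genes tested. For 42 of 60 genes (70%) the 95% confidence interval of the difference lay within 1 log2 unit on either side of 0, a 2-fold change, against 40.7% of all genes. These intervals are from the fit without a term for the array sets described below. For those 42 genes that fit bounds the difference to less than 2-fold, and for the other 18 it does not. Whether the bound holds with the set as a term was not tested.

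**Figure D1:**
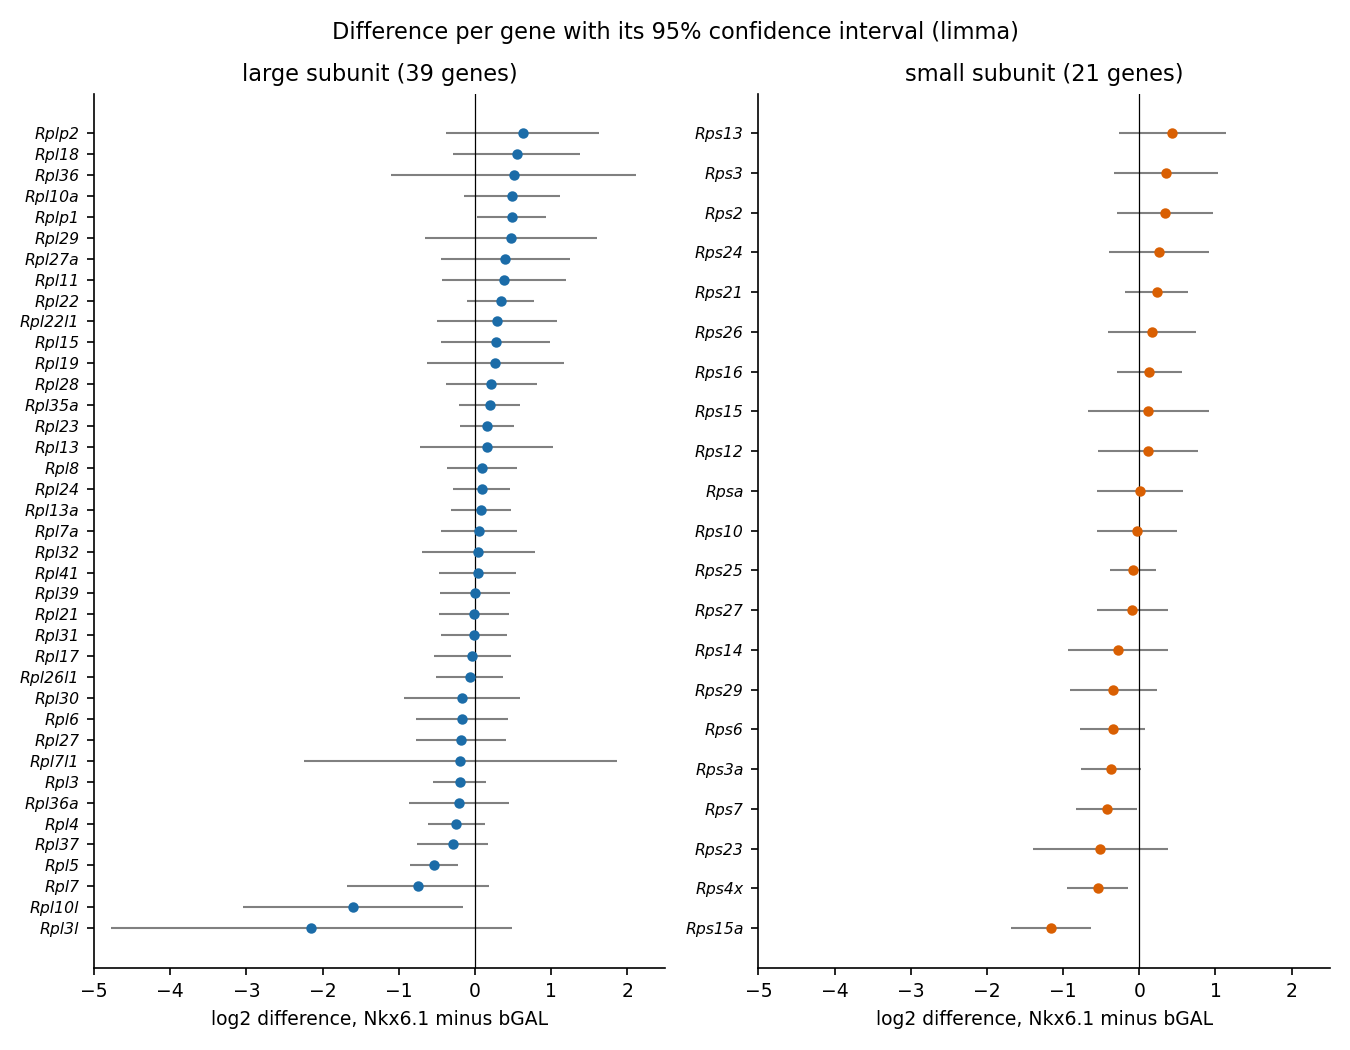
Log2 difference, Nkx6.1 minus bGAL, for each ribosomal protein gene (point) with its 95% confidence interval from limma (line), in the large subunit (39 genes, left) and the small subunit (21 genes, right). Most points lie within 0.5 of 0; Rps15a stands lowest in the small subunit, and the paralogs Rpl3l and Rpl7l1 have the widest intervals.

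The arrays themselves fall into 2 sets by the share of probes without a value, and the sets are unevenly spread over the groups. Set 1, with 27.3% to 32.5% of probes empty, held Nkx6.1 replicate 1 and bGAL replicates 1, 2, 3 and 5. Set 2, with 0.816% to 9.13% empty, held Nkx6.1 replicates 2 to 5 and bGAL replicate 4. Set 1 thus has a single Nkx6.1 sample and set 2 a single bGAL sample. Ratios were most dispersed in Nkx6.1 replicate 2, whose probes had an interquartile range of 1.09, against 0.35 to 0.58 in the other 9 samples. Of the 24 ribosomal protein genes named by rule, 5 had the opposite sign of difference within set 1 and 4 within set 2. The median difference of the 60 genes was −0.12 within set 1 and −0.07 within set 2, both opposite in sign to the pooled 0.04, and it was −0.10 with the set as a term in the fit. Without Nkx6.1 replicate 2 it was −0.01, and 15 of the 60 genes changed the sign of their difference. With the set as a term 3 of 60 genes had an unadjusted p under 0.05 (background 5.07% of all genes), and 0 of 60 passed after adjustment.

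Within a sample, the family moved partly together. The number of the 60 genes above their own centre was 16, 36, 33, 38 and 24 in Nkx6.1 replicates 1 to 5, and 22, 24, 16, 48 and 45 in bGAL replicates 1 to 5. Over all genes that share kept to between 45.5% and 53.2% in every sample. The median of every array lay close to the centre of the scale, so the share over all genes could vary little. Among 60 mitochondrial ribosomal protein genes the count ran from 17 (28.3%) in bGAL replicate 3 to 40 (66.7%) in bGAL replicate 5. Swings between samples were thus not particular to the cytosolic family. The lowest counts, 16 of 60, were in Nkx6.1 replicate 1 and bGAL replicate 3, and the highest, 48 and 45 of 60, were in bGAL replicates 4 and 5, so both groups held low samples and bGAL held the highest. The median over the 60 genes was −0.15, 0.20, 0.01, 0.04 and −0.09 in the Nkx6.1 samples, against −0.16, −0.04, −0.17, 0.13 and 0.24 in the bGAL samples. The groups overlapped over nearly their whole range.

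**Figure D2:**
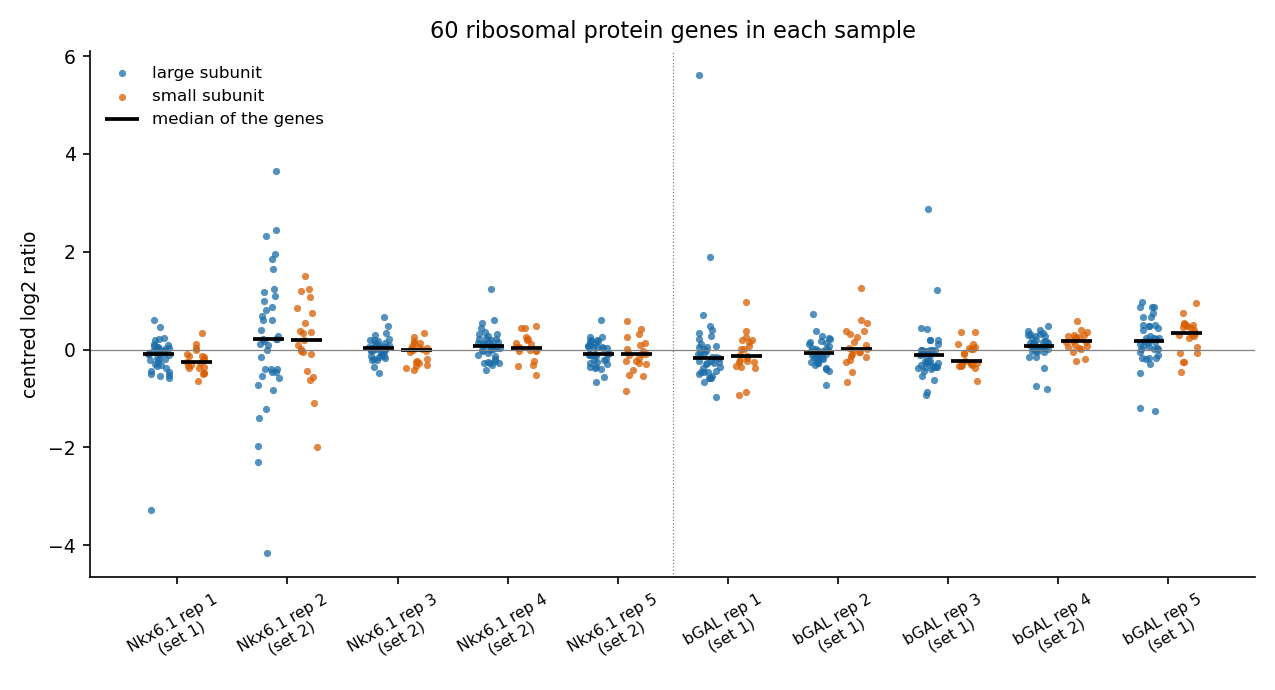
Centred log2 ratio of the 60 ribosomal protein genes in each sample, large subunit in blue and small subunit in orange, with the median of each as a black bar; the array set is given under each sample name. The points of Nkx6.1 replicate 2 spread between −4.16 and 3.64, wider than in any other sample, and the medians of both groups lie on either side of 0.

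In the stalk of the large subunit, the flexible arm that recruits elongation factors, Rplp1 and Rplp2 were the acidic proteins measured. Rplp1 had centred ratios of 0.21, 0.86, 0.01, −0.01 and 0.25 in the Nkx6.1 samples, against −0.46, −0.22, −0.29, 0.03 and −0.17 in the bGAL samples. Nkx6.1 replicate 2 was the highest, and bGAL replicate 4 lay above 2 of the Nkx6.1 samples, so the groups overlapped. The difference was 0.49 (SE 0.20, 95% interval 0.03 to 0.94, limma adjusted p = 0.508), and it was 0.49 within set 1 and 0.24 within set 2. Rplp2 differed by 0.63 (limma adjusted p = 0.596), but its value in Nkx6.1 replicate 2 was 2.33, against −0.05 to 0.08 in the remaining samples of its group, and without that sample its difference was 0.16. Within the sets it was 0.15 and 0.57. Rplp0, read under its older symbol, had a difference of 0.14 (limma adjusted p = 0.858).

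Rpl5 and Rpl11 bind the 5S ribosomal RNA and, outside the ribosome, hold back Mdm2, the ligase that degrades p53. Rpl5 had centred ratios of −0.21, −0.54, −0.22, −0.27 and −0.36 in the Nkx6.1 samples, against 0.28, 0.28, 0.19, 0.29 and 0.03 in the bGAL samples. All 5 Nkx6.1 values lay below all 5 bGAL values, and bGAL replicate 5 came nearest to the Nkx6.1 samples. The group means were −0.32 ± 0.14 and 0.21 ± 0.11 (SD, n = 5 each), a difference of −0.54 (SE 0.14, 95% interval −0.85 to −0.22, limma adjusted p = 0.300). Its 2 probes gave −0.74 and −0.33. They stood apart in Nkx6.1 replicate 2, where the first read −1.26 and the second 0.17. By probe, the groups did not overlap for the first but did for the second. Its 0.17 lay above bGAL replicates 3 and 5, at 0.06 and −0.06. Without Nkx6.1 replicate 2 the difference of Rpl5 was −0.48, and it was −0.41 within set 1 and −0.63 within set 2. Its partner Rpl11 had a difference of 0.38 (limma adjusted p = 0.660), with bGAL samples between −0.86 and 0.87 that enclosed every Nkx6.1 value. It was −0.11 within set 1, 0.15 within set 2 and 0.02 with the set as a term.

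Of the proteins of the body of the large subunit, Rpl3, which reaches the peptidyl transferase centre, differed by −0.20 (0.01 within set 1 and −0.31 within set 2) and was among the steadiest genes. Rpl10a differed by 0.49 (SE 0.28, limma adjusted p = 0.560) and Rpl18 by 0.55 (SE 0.37, limma adjusted p = 0.588). Without Nkx6.1 replicate 2 the difference was 0.18 for Rpl18 and 0.31 for Rpl10a. That of Rpl10a was 0.11 and 0.26 within sets 1 and 2, and that of Rpl18 0.28 and 0.45. Rpl7 differed by −0.74 (limma adjusted p = 0.554) with a value of −2.30 in that sample, and by −0.32 without it (−0.38 and −0.70 within sets 1 and 2). Rpl36 turned its sign: 0.51 with Nkx6.1 replicate 2, in which it read 3.64, and −0.26 without it. It was −0.50 within set 1 and 0.69 within set 2, the set of that sample. Rpl39, which lines the exit tunnel, differed by 0.00 with a 95% interval of −0.46 to 0.46, and by 0.03 and 0.34 within the sets. Rpl13a, which in human cells also acts as a silencer of some inflammatory messages, differed by 0.08 (95% interval −0.31 to 0.48), with 0.32 within set 1 and −0.08 within set 2. Rpl22 differed by 0.34 (95% interval −0.10 to 0.78), with 0.20 within set 1 and 0.05 within set 2.

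In the small subunit Rps15a gave the clearest separation of any ribosomal protein gene. It had centred ratios of −0.37, −0.57, −0.23, −0.33 and −0.85 in the Nkx6.1 samples, against 0.97, 1.27, 0.36, 0.59 and 0.23 in the bGAL samples. Every Nkx6.1 sample was below 0 and every bGAL sample above it. The means were −0.47 ± 0.25 and 0.69 ± 0.43 (SD, n = 5 each), a difference of −1.16 (SE 0.24, 95% interval −1.68 to −0.63), or 2.23-fold lower with Nkx6.1, with a limma adjusted p of 0.141. The size held within each array set, at −1.08 in set 1 and −1.09 in set 2, and was −1.01 to −1.27 when each sample was left out in turn. A single probe reads this gene, so no second probe was there to set beside it.

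Rps4x is the X-linked gene of a small-subunit protein. It read −0.47, −0.06, −0.38, −0.01 and −0.42 in the Nkx6.1 samples, against 0.01, 0.55, 0.04, 0.35 and 0.45 in the bGAL samples. The groups did not overlap but nearly met, the highest Nkx6.1 value at −0.01 and the lowest bGAL value at 0.01. The difference was −0.55 (SE 0.18, 95% interval −0.95 to −0.14, limma adjusted p = 0.428), with −0.73 within set 1 and −0.57 within set 2.

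Non-overlapping groups were found for 3 of the 60 genes (5%), Rps15a, Rpl5 and Rps4x, all with Nkx6.1 lower. For Rpl5 this holds for the mean of its 2 probes, and the groups overlapped in 1 of the 2. Over the 9617 genes with all 10 values 3.81% had groups that did not overlap, and 1.82% with Nkx6.1 lower. Without Nkx6.1 replicate 2, 5 of 60 genes did not overlap, all lower, the added genes being Rps29 and Rps6; over all genes the share was then 5.4%, and 2.43% lower. Rps29 is named after its values were seen. Counted in either direction the share of 5% was near the background, and the members that were lower are 3 genes.

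**Figure D3:**
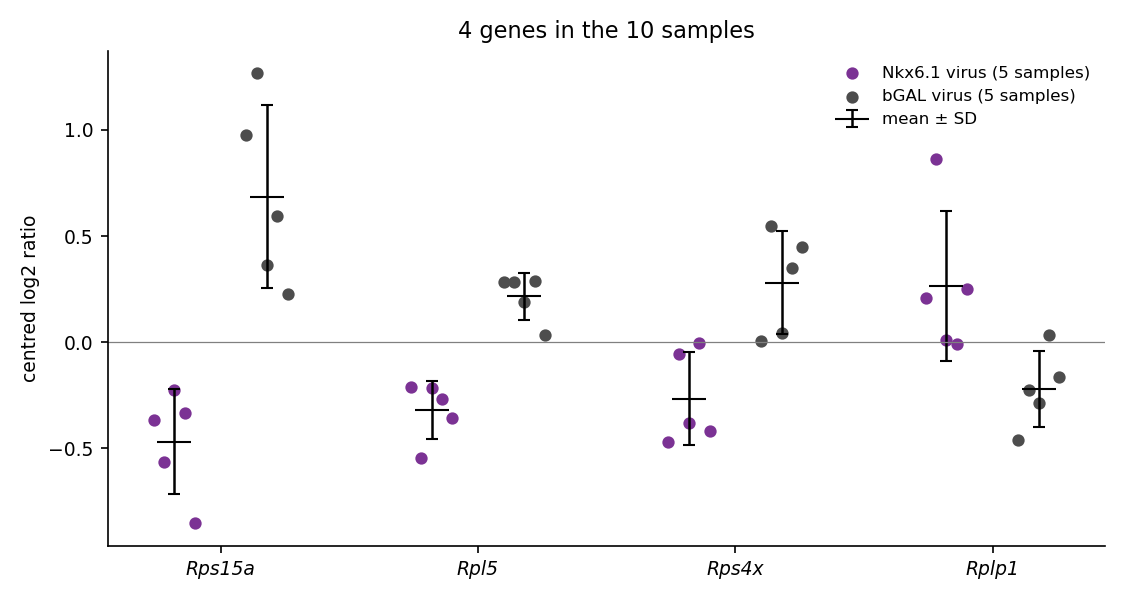
Centred log2 ratio of Rps15a, Rpl5, Rps4x and Rplp1 in the 5 Nkx6.1 samples (purple, left of each pair) and the 5 bGAL samples (grey, right), with mean ± SD. The groups do not overlap for Rps15a, Rpl5 and Rps4x, and do for Rplp1.

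Rps6, the substrate of the S6 kinases, had values of −0.48, 0.18, −0.33, −0.24 and −0.10 in the Nkx6.1 samples, against 0.06, 0.60, 0.12, 0.07 and −0.06 in the bGAL samples. Nkx6.1 replicate 2 was the only Nkx6.1 sample inside the bGAL range. Its difference was −0.35 (SE 0.19, limma adjusted p = 0.553), and −0.45 without Nkx6.1 replicate 2. Within the sets it was −0.66 and −0.19. Rps3, which lies at the entry of the messenger RNA, differed by 0.35 (95% interval −0.33 to 1.04), but by −0.01 within set 1, 0.04 within set 2 and 0.01 with the set as a term. Rps14, whose loss of one copy is known from a human anaemia, differed by −0.28, by −0.07 without Nkx6.1 replicate 2, and by −0.59 and −0.44 within the sets. Rps27 differed by −0.09, and by −0.21 and −0.30 within the sets. Rpsa, also known as the laminin receptor, differed by 0.01 with a 95% interval of −0.55 to 0.57, and by 0.06 and −0.28 within the sets. Rps25, which some viral messages need in order to start translation, differed by −0.09 with the narrow interval of −0.39 to 0.21. Within the sets it differed by −0.31 and 0.04. That interval is for the mean of its 2 probes, which read −0.47 and 0.47 in Nkx6.1 replicate 2. In the fit that weights arrays by their quality, 3 of 60 genes (5%) passed, Rps15a (limma adjusted p = 0.0227), Rpl5 (limma adjusted p = 0.0237) and Rps3a, a gene named after its values were seen, all lower with Nkx6.1. Over all alternatives the adjusted p of limma was 0.0227 to 0.861 for Rps15a and 0.0237 to 0.928 for Rpl5. That fit called 430 of 9974 genes (4.31%), so this share too was near the background.

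Large and small subunits were compared in each sample as the mean of the 39 large-subunit genes minus the mean of the 21 small-subunit genes. This was 0.04, 0.02, 0.09, 0.04 and 0.03 in the Nkx6.1 samples, against 0.12, −0.15, 0.06, −0.09 and −0.11 in the bGAL samples. The Nkx6.1 samples lay close together above 0, and the bGAL samples lay on both sides of them. The group means were 0.05 ± 0.03 and −0.04 ± 0.12 (SD, n = 5 each), a difference of 0.08. It was 0.06 within set 1 and 0.14 within set 2. By gene, the median difference was 0.05 in the large subunit, with 23 of 39 genes higher, and −0.03 in the small subunit, with 10 of 21 higher. Within the sets both medians were negative, −0.05 and −0.03 for the large subunit and −0.29 and −0.13 for the small subunit in sets 1 and 2.

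Without the paralogs the groups no longer overlapped. These 5 genes, with symbols ending in l or l1 (Rpl3l, Rpl10l, Rpl7l1, Rpl22l1 and Rpl26l1), were set apart after the values had been seen, all belong to the large subunit, and the result without them is a description only. Without them the large minus small mean was 0.10, 0.22, 0.08, 0.04 and 0.07 in the Nkx6.1 samples, against −0.08, −0.17, −0.05, −0.06 and −0.08 in the bGAL samples. All Nkx6.1 samples were then above 0 and all bGAL samples below it, with group means of 0.10 ± 0.07 and −0.09 ± 0.05 (SD, n = 5 each) and a difference of 0.19, or 0.16 without Nkx6.1 replicate 2. With Rps15a left out as well the difference was 0.14. Medians in place of means, over all 60 genes, gave a difference of 0.11 with overlap, since bGAL replicate 3 read 0.12. Medians without the paralogs gave 0.03 to 0.16 in the Nkx6.1 samples, against −0.15 to 0.0023 in the bGAL samples, a difference of 0.16 without overlap.

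**Figure D4:**
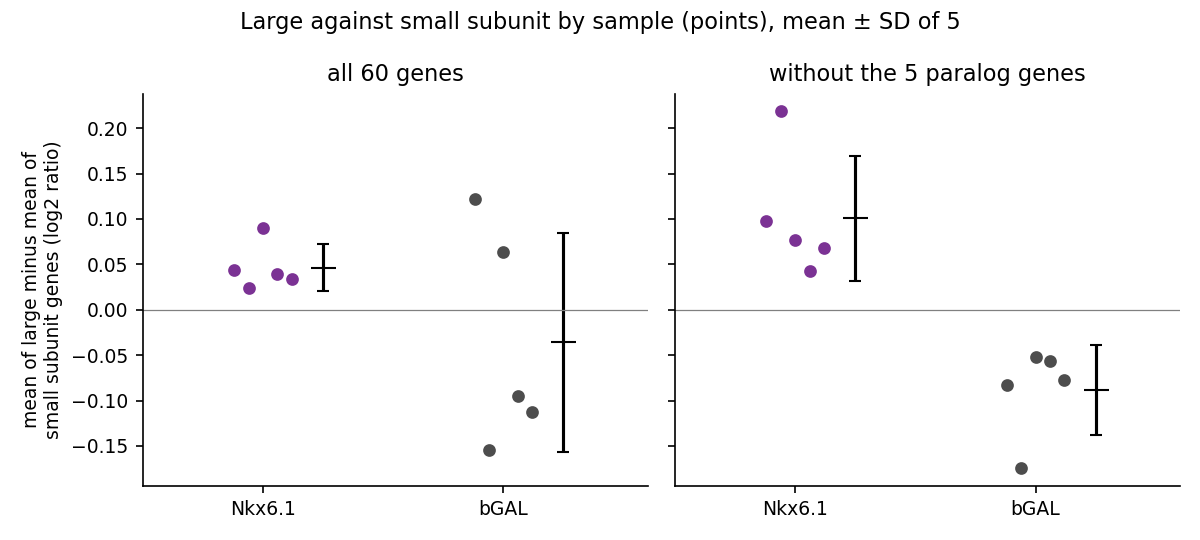
Mean of the large-subunit genes minus mean of the small-subunit genes in each sample (log2 ratio), Nkx6.1 left and bGAL right, with mean ± SD of 5 samples, over all 60 genes (left panel) and without the 5 paralog genes (right panel). In the left panel the bGAL samples enclose the Nkx6.1 samples, and in the right panel the groups are apart by a difference of 0.19.

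Rpl3l stands in for Rpl3 in striated muscle of mice and humans, and Rpl10l for Rpl10 in the mouse testis. Rpl3l read −3.29, 0.81, −0.48, −0.20 and −0.56 in the Nkx6.1 samples, against 5.62, 0.73, 1.21, −0.74 and 0.20 in the bGAL samples. The difference of −2.15 had an interval of −4.78 to 0.48 (limma adjusted p = 0.553), and its ends came from replicate 1 of each group. Without bGAL replicate 1 it was −1.10, and it was −5.23 within set 1 but 0.63 within set 2. Rpl10l, called Rpl10l1 in the present RefSeq annotation, read −0.59, −1.96, 0.35, −0.26 and −0.67 in the Nkx6.1 samples, against 1.88, 0.11, 2.86, −0.02 and 0.02 in the bGAL samples, a difference of −1.60 (SE 0.65, limma adjusted p = 0.498). The groups overlapped, and the high values were those of bGAL replicates 1 and 3, both of set 1. It was −1.81 within set 1 and −0.62 within set 2. Rpl7l1 differed by −0.19, and by 0.74 without Nkx6.1 replicate 2, in which it read −4.16. Within the sets it was 0.52 and −1.0. Rpl22l1 differed by 0.29 (limma adjusted p = 0.723), beside the 0.34 of Rpl22, and by 0.56 and 0.74 within the sets. Rpl26l1 differed by −0.07.

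Ribosomal protein genes varied less between arrays of a group than most genes. Their median within-group SD was 0.395 log2 units, against 0.555 over all genes tested, and 44 of 60 lay below that value. Without Nkx6.1 replicate 2 it was 0.261, against 0.403 over all genes, with 47 of 60 below. A low SD was not particular to the family. Over all 10 samples the median SD was 0.367 for mitochondrial ribosomal protein genes and 0.380 for elongation and termination factors. It was 0.411 for ribosome biogenesis, 0.459 for initiation factors and 0.717 for growth signalling to ribosomes. The steadiest were Rps25 (SD 0.0983), Rpl5 (0.125) and Rpl3 (0.166). Rps25 and Rpl5 are means of 2 probes, which had opposite signs in Nkx6.1 replicate 2. There the probes read −0.47 and 0.47 for Rps25, and −1.26 and 0.17 for Rpl5. Their low SDs are thus those of the mean and not of each probe. The least steady were Rpl3l (2.05), Rpl7l1 (1.59) and Rpl36 (1.24). Of the 55 standard genes 40 had an SD under 0.5, with a median of 0.383, while 4 of the 5 paralogs were above 0.5, with a median of 1.11. Ratios of strong spots vary less than those of faint ones, and spot brightness is not analysed here, so its part in the smaller SD was not tested. A probe was taken as held at a floor if 3 or more samples shared a value. That was so for 0 of the 83 ribosomal protein probes, against 7209 of the 17744 probes with 10 values. The part of floors in the SDs was not tested either. Nkx6.1 replicate 2 was the most extreme sample for 34 of 60 genes (56.7%), against 43.1% of all genes.

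**Figure D5:**
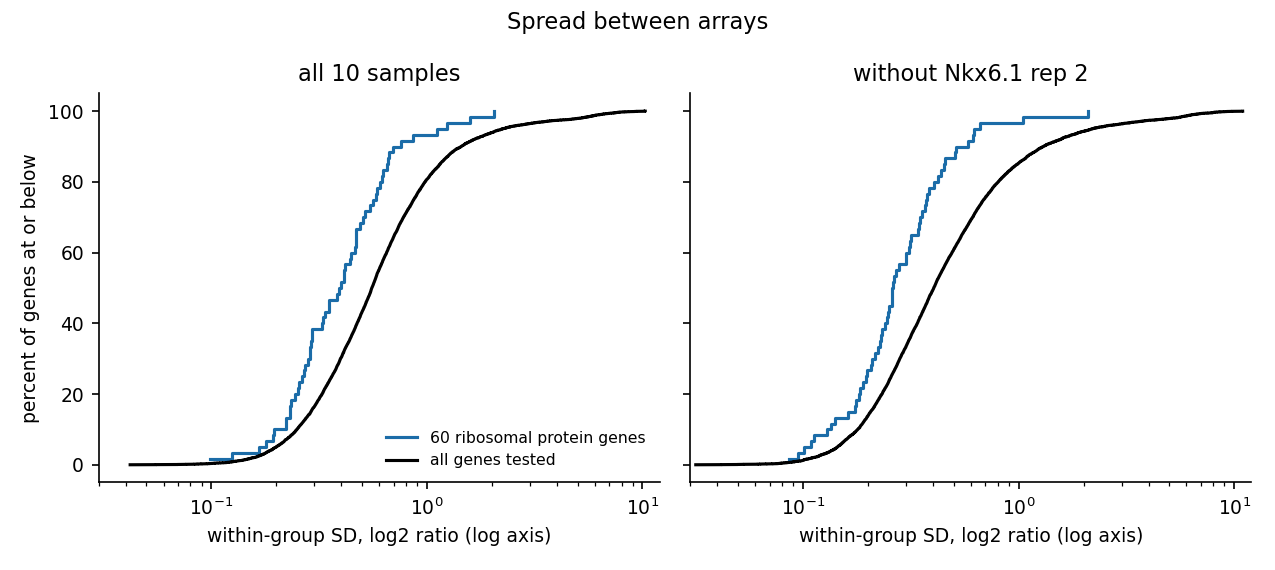
Cumulative share of genes by within-group SD of the log2 ratio (log axis) for the 60 ribosomal protein genes (blue) and all genes tested (black), over all 10 samples (left) and without Nkx6.1 replicate 2 (right). The ribosomal protein curve lies left of the other, with medians of 0.395 and 0.555 in the left panel.

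Among the 19 genes with several probes, the probes gave the same sign of difference for 12 and opposite signs for 7. The median gap between the lowest and the highest probe was 0.22 log2 units, and the widest was 0.67, in Rps12, a gene named after its values were seen. Gaps of that order are as large as most of the differences between the groups. In Nkx6.1 replicate 2 the probes of a gene were a median of 0.70 apart.

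Lists of genes that act beside or on the ribosome were read the same way. Of 60 mitochondrial ribosomal protein genes, which serve the separate ribosome of that organelle, 0 passed the threshold. An unadjusted p under 0.05 was found for 8 of the 60, against 9.65% of all genes. The median difference of the 60 genes was 0.05. Mrpl1 read −0.26, −0.67, −0.16, −0.40 and −0.14 in the Nkx6.1 samples, against 0.93, 0.62, 0.61, 0.17 and 0.12 in the bGAL samples, without overlap (difference −0.82, limma adjusted p = 0.263). Mrps12 differed by 0.57 and Mrpl12 by 0.51, also without overlap between the groups. These 3 genes were picked as those with the lowest p of the list. Over all genes with 10 values 3.81% had groups without overlap. Of 35 measured genes of ribosome biogenesis 0 passed and 1 (2.86%) had an unadjusted p under 0.05, against 9.65% of all genes. The median difference of the 35 genes was −0.04. Nop56, a box C/D snoRNP protein, differed by 0.64, and Nip7, needed for rRNA processing, by −0.78. Without Nkx6.1 replicate 2 these were 0.37 and −0.51.

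Of 31 initiation factor genes 0 passed and 4 (12.9%) had an unadjusted p under 0.05, against 9.65% of all genes, with a median of −0.14. The gene with the lowest p of this list is given next, and 3.81% of genes with all 10 values had groups without overlap. Eif4e2, a cap-binding protein that represses translation, read 0.24, 0.62, 0.26, 0.27 and 0.23 in the Nkx6.1 samples, against −0.39, −0.47, −0.54, −0.34 and −0.23 in the bGAL samples, a difference of 0.72 without overlap (limma adjusted p = 0.141). Of 11 elongation and termination factor genes 0 passed and 1 (9.09%) had an unadjusted p under 0.05. Eef2, which moves the ribosome along the message, differed by −0.57. Of 16 genes of growth signalling to ribosomes 0 passed and 0 had an unadjusted p under 0.05. Mtor differed by −0.46. Pdcd4, an inhibitor of the initiation helicase, differed by −1.62 with a value of −4.37 in Nkx6.1 replicate 2, and by −0.81 without it. Of the ribosomal proteins outside the symbol rule, Fau differed by −0.05 and Rack1 by 0.02.

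Of 18 leukocyte markers 13 were measured, and all 13 had a lower mean with Nkx6.1, as did 5436 of all 9974 genes. Their median difference was −0.99, with −1.61 within set 1 and −0.47 within set 2. The mean over the list lay between −0.62 and −0.38 in Nkx6.1 samples, against 0.11 to 1.73 in bGAL samples, where the highest mean includes one gene at 15.5. The median over the list overlapped, at −0.52 to 0.12 in Nkx6.1 samples and −0.01 to 0.84 in bGAL samples. By gene, 0 of 13 passed the threshold and 4 (30.8%) had an unadjusted p under 0.05, against 9.65% of all genes. Hormone genes had a median difference of 0.06 (8 of 8 measured), with all 8 above 0 in Nkx6.1 replicate 2, where their mean was 2.28. Without that sample it was −0.38, and within sets 1 and 2 it was −0.29 and 0.62. Acinar markers had a median difference of 0.59 (9 of 14 measured), which was 0.35 without Nkx6.1 replicate 2 and 0.50 and 0.14 within the sets. Duct markers had 0.69 (4 of 7), with 0.33 and 0.15 within the sets. The value was −0.17 for stellate and fibroblast markers (8 of 10) and −0.02 for endothelial markers (3 of 8). Their part in the differences of Rps15a, Rpl5 and Rps4x was not tested.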

How the data were processed

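Per the labels, islet RNA was in Cy5 and a rat reference RNA in Cy3 on spotted oligonucleotide arrays. The values are log2 ratios deposited by the authors in 1 table of 10 samples. How background was corrected, how arrays were normalised and which way the ratio runs was not given in the sources used here. All 17744 probes with 10 values had a median of 0 (within 0.001), so probes were centred. Islet over reference is likely, as islet RNA was in Cy5 and Cdk1 differed by 2.63 in a study of proliferation. Of islet-gene probes held at their floor 3 of 3 lay above it, against 1 of 6 probes of dividing-cell genes. Over all probes held at a floor 3974 of 7209 did, so these few probes carry little weight. Of 26984 probes 22 controls were left out, 15807 had a symbol, 0 had several and 11155 had none.

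Probes of a gene were averaged, and genes with at least 3 values per group were fitted with limma 3.58.1 in R 4.3.3 (lmFit, eBayes, two-sided, Benjamini-Hochberg, 0.05) on 10 samples, 5 per group. Tested on simulated data over 9974 genes, the fit called 18 of 100 genes shifted by 1 log2 unit and 65 of 100 shifted by 2. It made 1 false call. The simulated noise had the SD of each gene and was independent between genes, without array sets or an outlying sample. The number of arrays limits the precision. Whether same-numbered samples share an isolation is not stated. Scores over the ribosomal protein genes have no test.

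The genes and lists were chosen with earlier results of these data known. Genes named are those past the threshold, the 5 largest differences each way, the 3 largest and 3 smallest SDs, genes listed by name, and the 3 lowest p of each other list. Alternatives were a replicate block, the array set as a term, each array set alone, quantile normalisation, array weights, other filters on missing values, the most variable probe of a gene, leaving out probes held at a floor, and leaving out each sample. Leaving out the paralogs was added after seeing the data.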

Additional observations from a re-analysis of the deposited data

Results flagged for a closer look

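In 54 groups of 5 samples, those of the named genes and scores, 6 held a sample far from the other 4 by Dixon's criterion, which marks about 1 in 20 groups by chance. Some of these genes were named for a large SD or difference, so the count is not set against that rate. Over both groups of all 60 genes 18 of 120 held such a sample, 14 of them Nkx6.1 replicate 2. Nkx6.1 replicate 2 was that sample in 5 of the 6 named above. Rpl18 read 1.85 there, against −0.28 to 0.13 in the remaining samples of the group. Rpl36 read 3.64, against −0.47 to 0.02, and Rplp2 read 2.33, against −0.05 to 0.08. Rpl7 read −2.30, against −0.30 to 0.05, and Rpl7l1 read −4.16, against −0.09 to 1.23. These values ran both ways in a single sample. The sixth was Rps6 in bGAL replicate 2, at 0.60, against −0.06 to 0.12 in the remaining bGAL samples.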

How the results depend on the processing

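Over all genes 15 passed the threshold. The count was 3 with the array set as a term, 27 after quantile normalisation, 430 with array weights and 2 to 36 when each sample was left out in turn, 36 being without Nkx6.1 replicate 2, 2 or 3 without Nkx6.1 replicates 3, 4 or 5 or bGAL replicates 2 or 3, and 6 without bGAL replicates 1 or 5. With the replicate block it was 0, with 811 genes at an unadjusted p under 0.05 and 0 ribosomal protein genes called. Same-numbered samples correlated at 0.17, −0.01, −0.10, 0.18 and −0.03 over all genes, and not every sample correlated best with its own number, so the numbers were not taken as pairs. Whether same-numbered samples share an isolation is not stated. The count of ribosomal protein genes was 0 in every alternative fit over all 10 samples or without 1 sample, except array weights, which gave 3, among them Rps15a (−1.31) and Rpl5 (−0.52). Within array set 1 the median difference was −0.12 over the ribosomal protein genes and −0.29 over the small subunit. Leaving out each sample gave medians of −0.01 to 0.12 for all 60 genes, 0.02 to 0.11 for the large and −0.10 to 0.14 for the small subunit. The same gave 0.05 to 0.12 for large minus small, which was 0.19 without the paralogs, and 0.261 to 0.414 for the median SD.

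Over the fits with both array sets, signs turned in 7 named genes. With array weights they were Rpl22l1 (−0.040), Rpl36 (−0.071), Rpl39 (−0.24), Rpl7l1 (0.90), Rps14 (0.14) and Rps27 (0.053). After quantile normalisation Rpl39 read −0.039 and Rpl7l1 0.31. With the most variable probe Rpl39 read −0.020, and with the array set as a term Rpsa read −0.11. Leaving out each sample gave −0.26 to 0.77 for Rpl36, −0.095 to 0.088 for Rpl39, −0.61 to 0.74 for Rpl7l1, −0.19 to 0.0011 for Rps27 and −0.12 to 0.14 for Rpsa. Within set 1 the sign turned in 5 of 24 named genes (Rpl11, Rpl3, Rpl36, Rpl7l1 and Rps3), and within set 2 in 4 (Rpl13a, Rpl3l, Rps25 and Rpsa). The cause was not tested. With 5 arrays per group and the spread of all genes tested, simulated differences of 1 log2 unit were mostly missed at this threshold (18 of 100 called). That rate was not measured for the ribosomal protein genes, whose median SD was 0.395, against 0.555 over all genes.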
